A study of Mus musculus with 9 samples.

Results

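The genes described here are the 4 members of the MiT/TFE family of transcription factors, Mitf, Tfeb, Tfe3 and Tfec, with 4 genes that act with them at the lysosome or are known to be controlled by them, Gpnmb, Flcn, Rragd and Mcoln1. They were taken by gene symbol, 8 of the 56691 genes in the deposited table, and each symbol matched a single row. Of the 8, 7 passed the filter on low values (3 or more libraries with an FPKM of 1 or above, FPKM being fragments per kilobase of exon scaled to the mapped fragments of the library) and were tested with 11995 genes in all, whereas Rragd did not pass and was described by its counts. The 7 passed the filter in every group, since their lowest value in any library was 1.10 FPKM.

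RNA sequencing was performed on RAW264.7 cells, an established mouse macrophage line that forms osteoclast-like cells when exposed to RANKL, the cytokine that drives osteoclast differentiation. The study asked how uridine (UD), a pyrimidine nucleoside, changes the transcriptome during this differentiation. The control group was left untreated, the RANKL group received RANKL, and the RANKL + UD group received RANKL together with UD, with 3 libraries a group, all from cells cultured for 3 days. All libraries came from the same line, the labels call them replicate biosamples, and the UD dose of these libraries is not named in the labels. There was no UD-only group, so UD was compared only in the presence of RANKL. Summed counts were 15951800 to 19746862 a library.

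MiT/TFE proteins are basic helix-loop-helix leucine zipper factors that bind DNA as dimers at E-box motifs, among them the CLEAR element found near many lysosomal and autophagy genes. When nutrients are plentiful, the Rag GTPases recruit TFEB and TFE3 to the lysosomal surface, where the kinase complex mTORC1 phosphorylates them and keeps them in the cytoplasm. Folliculin (Flcn) activates RagC and RagD (Rragd), and the lysosomal calcium channel TRPML1 (Mcoln1) releases calcium that can activate the phosphatase calcineurin, which removes those phosphates. In osteoclasts, MITF and TFE3 are known to act on genes of bone resorption, and certain Mitf mutations cause osteopetrosis in mice. Library values measure mRNA and hold nothing on the phosphorylation or location of these proteins.

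The start regions of 3 members are shown: those of Mitf and Gpnmb, which rose with RANKL, and that of Mcoln1, the one whose window holds CACGTG. The bases before the start site were read from RefSeq promoter windows (build GRCm38.p6, forward strand for all 3) and stop before the first base of the gene in the GENCODE annotation. Capitals mark CACGTG, a form of the E-box core. Both strands were searched for CACGTG, for TCACGTG, the core of the CLEAR element, which contains CACGTG, and for CATGTG, the M-box core. Other forms of the E-box were not searched. The run for Mcoln1 is chr8:3500269-3500456, and its other motif is given with 12 bases on each side, chr8:3500462-3500491. The Gpnmb run is chr6:49036268-49036517 and the Mitf run is chr6:97806808-97807051. The Mitf run comes from the most upstream of its 3 RefSeq windows, and which start these cells use was not tested.
Mcoln1, upstream: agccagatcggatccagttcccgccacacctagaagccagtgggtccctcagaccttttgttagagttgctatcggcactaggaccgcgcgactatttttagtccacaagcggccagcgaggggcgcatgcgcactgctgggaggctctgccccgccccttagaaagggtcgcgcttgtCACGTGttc
Mcoln1, other motif: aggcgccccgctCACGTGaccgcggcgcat
Gpnmb, upstream: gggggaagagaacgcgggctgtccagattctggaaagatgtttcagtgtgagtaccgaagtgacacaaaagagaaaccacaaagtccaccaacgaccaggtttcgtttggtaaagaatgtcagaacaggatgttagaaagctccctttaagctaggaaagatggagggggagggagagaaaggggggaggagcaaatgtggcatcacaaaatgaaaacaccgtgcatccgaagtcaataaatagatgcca
Mitf, upstream: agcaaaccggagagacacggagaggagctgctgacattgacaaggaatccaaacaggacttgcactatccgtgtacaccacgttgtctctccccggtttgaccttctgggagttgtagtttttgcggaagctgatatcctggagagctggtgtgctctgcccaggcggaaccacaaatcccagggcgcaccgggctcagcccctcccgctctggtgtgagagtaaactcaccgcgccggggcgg

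All 8 members matched RefSeq windows, each running from 250 bases before to 50 bases after a start site, with 3 windows for Mitf, 3 for Tfeb, 2 for Tfe3 and 1 for each of the others. The Mcoln1 window alone held CACGTG, at 2 places whose first bases lie 71 and 45 bases before the RefSeq start, and both lie within TCACGTG on one strand or both. The place at 45 bases, printed as the other motif, lies inside the gene by the GENCODE annotation. None of the members' windows held CATGTG. Over 32851 windows of the same length, 7.15% held CACGTG, 3.77% held TCACGTG and 14.2% held CATGTG. A match is a description of the letters, and a window without one says only that these letters are not in it.

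The 2 tested members that rose with RANKL were Mitf and Gpnmb, and both were lower again with UD. Tfeb and Tfe3 fell with RANKL, and with UD they stayed below control. Flcn and Mcoln1 did not pass the test in any of the 3 comparisons, nor did Tfec. Of the 7 members tested, 2 were higher, 2 were lower and 3 did not pass in the RANKL group against control, where 57.6% of all tested genes were called by edgeR's quasi-likelihood test at a Benjamini-Hochberg adjusted p under 0.05 (27.3% higher and 30.2% lower). In RANKL + UD against RANKL, 0 members were higher, 3 were lower and 4 did not pass, beside 38.8% of all tested genes called (18.6% higher and 20.2% lower). In RANKL + UD against control, 2 were higher, 2 were lower and 3 did not pass, beside 54% of all tested genes called (26.7% higher and 27.3% lower). At an unadjusted p under 0.05, 1 member (Tfec) was above its RANKL level in the RANKL + UD group. By FPKM alone, 4 of the 7 tested members had groups that did not overlap in RANKL against control (61.7% of all tested genes), 4 in RANKL + UD against RANKL (51.7%) and 4 in RANKL + UD against control (59.9%). The first 2 comparisons share the RANKL libraries, so a gene that is high in those libraries tends to rise in the one and fall in the other. In bulk RNA, a change in the share of cells of a type and a change in RNA per cell cannot be told apart.

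**Figure D1:**
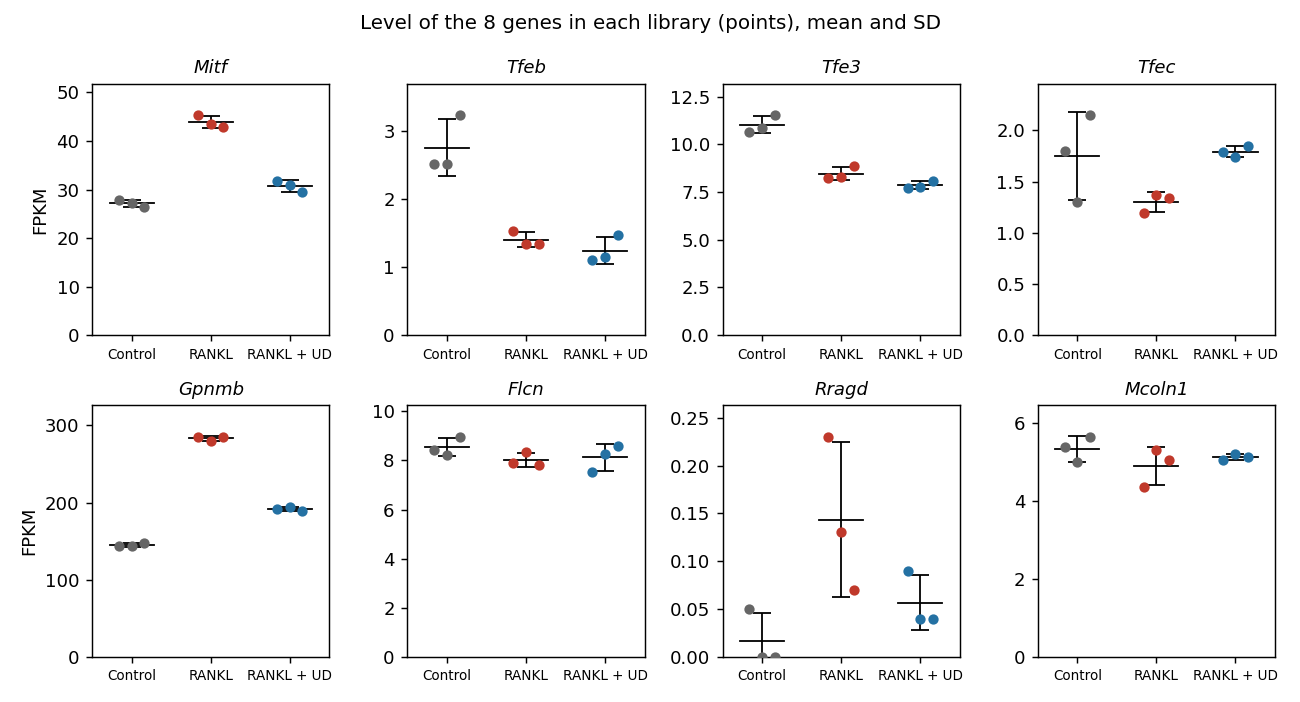
FPKM (vertical axis, linear from 0, a separate scale for each gene) of the 8 genes in the 3 control, 3 RANKL and 3 RANKL + UD libraries; points are libraries, long bars are means and short bars are 1 SD, cut at 0. The RANKL libraries of Mitf (42.83 to 45.34) and Gpnmb (279.66 to 285.18) lie above all others, while the Flcn and Mcoln1 libraries overlap between groups.

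Mitf encodes the founding member of the family and is known for its roles in melanocytes and osteoclasts. Its gene (ENSMUSG00000035158) spans chr6:97807052-98021349 on the forward strand of GRCm38. Mitf stood at 27.9, 27.23 and 26.37 FPKM in the control libraries, at 45.34, 43.57 and 42.83 FPKM with RANKL and at 31.72, 31.03 and 29.39 FPKM with RANKL + UD. The 3 groups did not overlap, and the RANKL + UD libraries lay between the others, nearer to control. The mean was 27.2 ± 0.767 FPKM in control, 43.9 ± 1.29 in RANKL and 30.7 ± 1.20 in RANKL + UD (SD, n = 3 each). RANKL raised Mitf 1.72-fold over control, a log2 difference of 0.78 with a standard error of 0.049 (edgeR, adjusted p = 1.27e-11). With UD, Mitf fell by 0.60 on the log2 scale relative to RANKL (SE 0.049, edgeR adjusted p = 4.99e-09), to 0.659 of the RANKL level. It remained 1.13-fold above control (log2 difference 0.18, 95% interval 0.08 to 0.28, edgeR adjusted p = 0.00432).

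Tfeb, the factor best known for driving lysosome formation and autophagy, was far lower than Mitf in every library. Its gene (ENSMUSG00000023990) lies at chr17:47737030-47792419 on the forward strand of GRCm38. Tfeb was measured at 2.51, 2.51 and 3.23 FPKM in control, 1.53, 1.34 and 1.34 FPKM in RANKL, and 1.10, 1.15 and 1.47 FPKM in RANKL + UD. Every control library lay above every other library, and the RANKL and RANKL + UD libraries overlapped. Tfeb fell by 0.88 on the log2 scale with RANKL (SE 0.144, edgeR adjusted p = 2.19e-05), to 0.544 of control. Between RANKL + UD and RANKL the log2 difference was -0.27, with a 95% interval of -0.59 to 0.05 (edgeR adjusted p = 0.182), so a fall to 0.665 of the RANKL level lies within the interval as does no change. Against control, Tfeb in RANKL + UD fell by 1.15 on the log2 scale (SE 0.147, edgeR adjusted p = 1.02e-06). The counts behind these values were 106 to 292 a library.

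Tfe3, which acts together with MITF in osteoclasts, had the same order of group means as Tfeb. Its gene (ENSMUSG00000000134) lies at chrX:7762560-7775202 on the forward strand of GRCm38. Tfe3 was at 10.66, 10.87 and 11.53 FPKM in control, 8.22, 8.31 and 8.85 FPKM in RANKL, and 7.69, 7.78 and 8.08 FPKM in RANKL + UD. No 2 groups overlapped, although the highest RANKL + UD library and the lowest RANKL library were 8.08 and 8.22. Tfe3 fell by 0.29 on the log2 scale with RANKL (SE 0.055, edgeR adjusted p = 0.000109) and was 0.49 lower in RANKL + UD than in control (log2 difference -0.49, SE 0.056, edgeR adjusted p = 1.92e-07). It fell by 0.19 with UD relative to RANKL (SE 0.056, edgeR adjusted p = 0.0087). That step depended on the scaling: with total counts in place of TMM the log2 difference was -0.11 (edgeR adjusted p = 0.132), and over all alternatives its adjusted p ranged from 0.00442 to 0.160.

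Tfec, the member expressed mainly in macrophages and related cells, had the lowest mean of the 4 factors in control and RANKL. Its gene (ENSMUSG00000029553) lies at chr6:16833373-16898441 on the reverse strand of GRCm38. Tfec was at 1.8, 1.3 and 2.15 FPKM in control, 1.19, 1.37 and 1.34 FPKM in RANKL, and 1.79, 1.74 and 1.85 FPKM in RANKL + UD. The control libraries were spread widely and overlapped both other groups, whereas all RANKL + UD libraries lay above all RANKL libraries. Tfec did not pass the test between RANKL and control (log2 difference -0.34, 95% interval -0.67 to 0.0017, edgeR adjusted p = 0.0829) or between RANKL + UD and RANKL (0.38, 95% interval 0.04 to 0.72, edgeR adjusted p = 0.068). These calls rest on the control libraries and the scaling. Without control replicate 2, the lowest control library, the difference between RANKL and control became -0.52 (edgeR adjusted p = 0.00706), and without control replicate 3, the highest, it became -0.16 (edgeR adjusted p = 0.414). Without control replicate 2 the difference between RANKL + UD and RANKL also passed the test, at the same size (edgeR adjusted p = 0.0340), as it did without control replicate 3 (0.0396), with only the 6 libraries of the comparison (0.0292) and with total counts (0.0237). Total counts also carried the difference between RANKL and control past the threshold, at -0.42 (edgeR adjusted p = 0.0291). RANKL + UD and control differed by 0.04 (95% interval -0.29 to 0.38, edgeR adjusted p = 0.834).

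**Figure D2:**
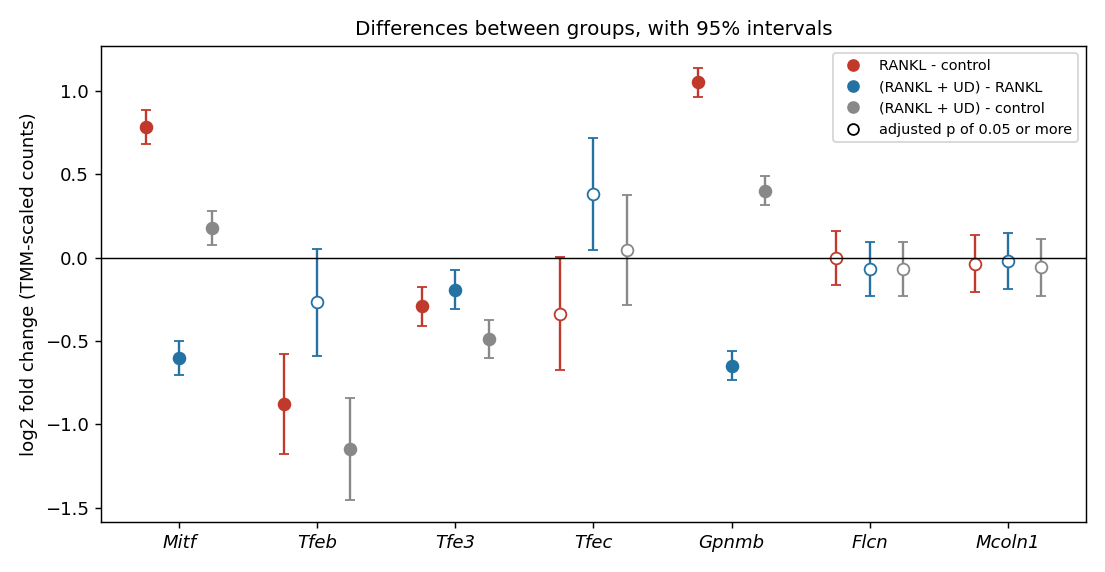
Log2 fold change (vertical axis, TMM-scaled counts) of the 7 tested genes in RANKL against control, RANKL + UD against RANKL and RANKL + UD against control; vertical lines are 95% intervals and open points have an adjusted p of 0.05 or more. Mitf and Gpnmb lie at 0.78 and 1.05 with RANKL and at -0.60 and -0.65 with UD, and the 6 intervals of Flcn and Mcoln1 all contain 0.

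On the per-length FPKM scale, Mitf made up most of the MiT/TFE mRNA in every library. Its share of the summed FPKM of the 4 factors was 63.7% ± 2.37 in control, 79.7% ± 0.890 in RANKL and 73.8% ± 1.56 in RANKL + UD (SD, n = 3). Tfe3 held 25.8% ± 0.894, 15.4% ± 0.847 and 18.9% ± 0.837 in the same order. For both genes the shares of the 3 groups did not overlap. The Tfeb share was 6.44% ± 0.892 in control, 2.55% ± 0.149 in RANKL and 2.99% ± 0.540 in RANKL + UD, with the last 2 groups overlapping. The Tfec share was 4.09% ± 0.938, 2.36% ± 0.216 and 4.31% ± 0.195, and only its RANKL libraries stood apart from the others. The sum itself was 42.7 ± 0.703 FPKM in control, 55.1 ± 1.05 in RANKL and 41.6 ± 0.760 in RANKL + UD, so the control (41.91 to 43.28) and RANKL + UD libraries (40.79 to 42.3) overlapped in total while differing in composition. These shares rest on 1 exonic length a gene, and isoforms were not resolved.

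**Figure D3:**
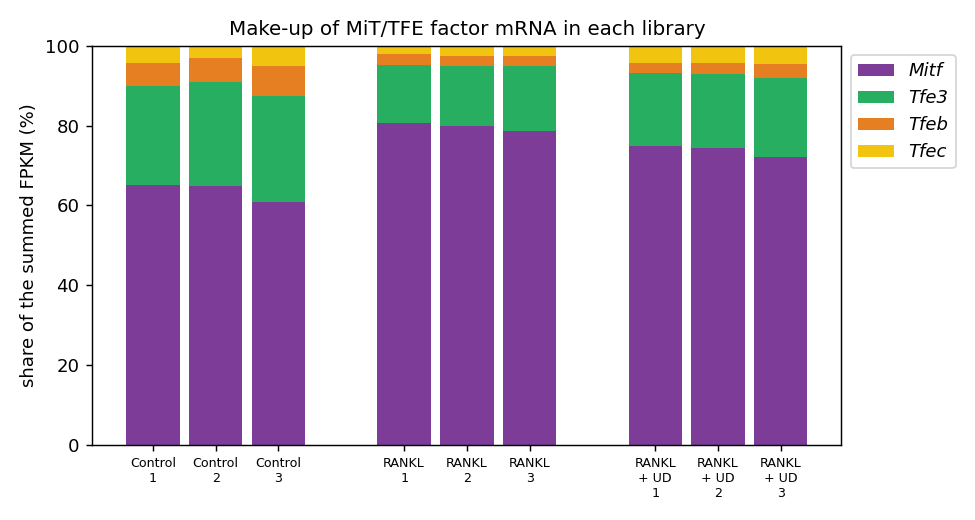
Share (vertical axis, percent) of Mitf, Tfe3, Tfeb and Tfec in their summed FPKM in each of the 9 libraries, stacked to 100%. The Mitf share is 60.9% to 65.1% in control, 78.8% to 80.6% in RANKL and 72.1% to 75.0% in RANKL + UD.

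Gpnmb encodes a transmembrane glycoprotein of macrophages and osteoclasts, also called osteoactivin, and is a known target of MITF and its relatives. Its gene (ENSMUSG00000029816) lies at chr6:49036546-49070929 on the forward strand of GRCm38. Gpnmb stood at 144.32, 143.6 and 147.76 FPKM in control, 284.56, 279.66 and 285.18 FPKM in RANKL, and 192.15, 194.25 and 188.56 FPKM in RANKL + UD. It was the most highly expressed member in every library, and its groups lay far apart relative to their spread. RANKL raised Gpnmb 2.07-fold over control (log2 difference 1.05, SE 0.042, edgeR adjusted p = 5.87e-15). With UD it fell by 0.65 on the log2 scale relative to RANKL (SE 0.042, edgeR adjusted p = 1.85e-10), to 0.638 of the RANKL level. It stayed 1.32-fold above control in RANKL + UD (log2 difference 0.40, SE 0.042, edgeR adjusted p = 4.68e-08). Its mean in RANKL lay above that of 98.9% of tested genes, and above that of 97.8% in control.

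Flcn encodes folliculin, the GTPase-activating protein for RagC and RagD. Its gene (ENSMUSG00000032633) lies at chr11:59791408-59810016 on the reverse strand of GRCm38. Flcn was at 8.42, 8.24 and 8.96 FPKM in control, 7.91, 8.33 and 7.8 FPKM in RANKL, and 7.52, 8.27 and 8.6 FPKM in RANKL + UD. All 3 groups overlapped. Its log2 difference was -0.0030 in RANKL against control (95% interval -0.16 to 0.16), -0.07 in RANKL + UD against RANKL (95% interval -0.23 to 0.09) and -0.07 in RANKL + UD against control (95% interval -0.23 to 0.09). As folds, the 3 intervals together ran from 0.851 to 1.12.

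Mcoln1 encodes the lysosomal cation channel TRPML1, a known target of TFEB as well as an upstream regulator of it. It is the member with CACGTG in its start window. Its gene (ENSMUSG00000004567) lies at chr8:3500457-3515232 on the forward strand of GRCm38. Mcoln1 was at 5.37, 4.99 and 5.64 FPKM in control, 4.35, 5.29 and 5.04 FPKM in RANKL, and 5.04, 5.19 and 5.13 FPKM in RANKL + UD. The groups overlapped, and the RANKL group held both the lowest library of all and one above every RANKL + UD library. Its log2 difference was -0.04 in RANKL against control (95% interval -0.21 to 0.13, edgeR adjusted p = 0.724), -0.02 in RANKL + UD against RANKL (95% interval -0.19 to 0.15) and -0.06 in RANKL + UD against control (95% interval -0.23 to 0.11).

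Rragd encodes RagD, a Rag GTPase that recruits TFEB and TFE3 to the lysosome, and itself a known target of the family. Its gene (ENSMUSG00000028278) lies at chr4:32983037-33022180 on the forward strand of GRCm38. Rragd was close to the detection limit, with 4, 0 and 0 counts in the control libraries, 23, 13 and 7 with RANKL, and 9, 3 and 4 with RANKL + UD. A count of 0 allows up to 3 counts, for counting error only. The RANKL libraries lay above the control libraries and overlapped the RANKL + UD libraries. In the fit without a filter on low values, Rragd passed the test between RANKL and control (edgeR adjusted p = 0.000885) but not between RANKL + UD and RANKL (0.215) or RANKL + UD and control (0.140). No fold is given because control was near 0, and at no more than 0.23 FPKM in any library Rragd was the lowest member throughout. Its paralog Rragc, encoding RagC, stood at 48.8 ± 2.32, 57.9 ± 1.66 and 55.1 ± 2.29 FPKM in the 3 groups.

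Ordered by FPKM within control, the members ran Gpnmb, Mitf, Tfe3, Flcn, Mcoln1, Tfeb, Tfec and Rragd, with no overlap between neighbours. The order was the same in RANKL, except that Tfe3 and Flcn overlapped there, as did Tfeb and Tfec. In RANKL + UD, Flcn and Tfe3 overlapped and Tfec lay above Tfeb in every library. FPKM rests on total counts, and the TMM factors were 0.959 to 0.962 in the RANKL libraries and 1.01 to 1.03 in the others, so FPKM understates the RANKL group relative to the tested differences.

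The markers of the cells moved with these groups. The summed FPKM of 8 osteoclast markers, among them Acp5, Ctsk and Mmp9, was 46.72 to 49.91 in control, 2638.81 to 2842.57 in RANKL and 1665.46 to 1702.28 in RANKL + UD, and Calcr alone was at 0 in every control library. Ctsk gave most of this sum in the groups given RANKL, with means of 1491 FPKM in RANKL and 869 in RANKL + UD. Of the 8 osteoclast markers, the 7 tested all rose with RANKL and all were lower with UD, beside 27.3% and 20.2% of all tested genes. However, Acp5, Mmp9 and Oscar passed the filter only through the 2 groups given RANKL. The sum of 7 macrophage markers was 9392.32 to 9982.13, 2526.67 to 2770.38 and 2203.47 to 2336.75 in the same order, none at 0. Lyz2 alone gave most of this sum in every group, with means of 7999.71 FPKM in control, 1431.03 in RANKL and 1285.38 in RANKL + UD. In RANKL, 6 of the 7 macrophage markers were lower than in control, beside 30.2% of all tested genes. Adgre1, Lyz2 and Itgam, which encode F4/80, lysozyme and an integrin subunit, fell by 2.46, 2.40 and 1.58 on the log2 scale, and Cd68, a protein of lysosomal membranes, rose by 0.60. With UD relative to RANKL, 6 of the 7 macrophage markers were lower and 1 higher, beside 20.2% and 18.6% of all tested genes. Itgam and Cd68 fell by 0.46 and 0.37 on the log2 scale, and Adgre1 was 0.22 higher. The Adgre1 call was lost without RANKL replicate 1 or RANKL + UD replicate 3 (edgeR adjusted p = 0.0561 and 0.105). Mitf and Gpnmb stood highest in the group whose osteoclast markers were highest, and the part of these markers in the result was not tested. The sum of 5 fibroblast and osteoblast markers was at most 0.9 FPKM in any library.

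Known targets of MITF outside the members were followed in 2 lists. In the osteoclast list of 7 targets and partners, 6 rose and 1 fell with RANKL. With UD 5 were lower and 2 did not pass. The median log2 difference was 2.01 and then -0.37, beside -0.03 and 0.0050 over all tested genes. As shares, 85.7% were higher and 14.3% lower with RANKL, beside 27.3% and 30.2% of all tested genes. With UD, 0% were higher and 71.4% lower, beside 18.6% and 20.2%. Ctsk, the collagen-degrading cathepsin of osteoclasts, had a mean of 8.34 FPKM in control, 1491 in RANKL and 869 in RANKL + UD. Acp5, the tartrate-resistant acid phosphatase, stood at 0.910, 411 and 341 FPKM. Oscar, an immunoglobulin-like costimulatory receptor, had 0, 7 and 0 counts in control, 780 to 798 in RANKL and 215 to 310 in RANKL + UD. Clcn7, the lysosomal chloride-proton exchanger, rose by 2.01 with RANKL and fell by 0.53 with UD on the log2 scale. Bcl2, an inhibitor of apoptosis, was the gene that fell with RANKL, by 0.64 (edgeR adjusted p = 4.89e-06), and its difference with UD did not pass. Acp5, Ctsk and Oscar are also among the osteoclast markers above. Acp5 and Oscar passed the filter only through the groups given RANKL, so their rises are no independent result. The counts, shares and median given above for RANKL include both genes and carry the same limit. On the log2 scale, the other genes of the list stood at 7.57 (Ctsk), 2.01 (Clcn7), 0.64 (Spi1), 0.48 (Ostm1) and -0.64 (Bcl2) with RANKL.

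Targets of MITF in melanocytes were all but absent. Of 9 such genes only Pmel, a structural protein of melanosomes, passed the filter, and it did so through the control group, with 44, 60 and 51 counts there, 2, 0 and 2 with RANKL and 3, 0 and 4 with RANKL + UD. Its exons overlap those of Cdk2 and Dgka on the opposite strand, and the strand setting of the counting is not given in the sources used here. In each group 5 or 6 of the 9 genes were listed at 0 in every library, among them Tyr, and the summed FPKM was at most 1.86 in any library.

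A list of 56 lysosomal and autophagy genes compiled from published CLEAR genes, none of them a member, was tested whole. With RANKL, 34 rose, 11 fell and 11 did not pass, and the median log2 difference was 0.29, beside -0.03 over all tested genes. With UD relative to RANKL, 5 were higher, 36 were lower and 15 did not pass (median -0.33, beside 0.0050). Relative to control, 25 were higher and 20 lower in RANKL + UD (median 0.08, beside -0.0021). As shares, 60.7% were higher and 19.6% lower with RANKL, beside 27.3% and 30.2% of all tested genes. With UD relative to RANKL the shares were 8.93% and 64.3%, beside 18.6% and 20.2%. In RANKL + UD against control they were 44.6% and 35.7%, beside 26.7% and 27.3%. The V-ATPase proton pump genes, whose symbols begin with Atp6, gave 13 of the 34 rises and 13 of the 36 falls, with medians of 1.28 and -0.39. Among the other 43 genes, 21 rose and 11 fell with RANKL (median 0.15), and 5 were higher and 23 lower with UD (median -0.23). In RANKL + UD against control the Atp6 genes were 12 higher and 1 lower (median 0.91), whereas the other 43 were 13 higher and 19 lower (median -0.05). That split was made after the values were seen.

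**Figure D4:**
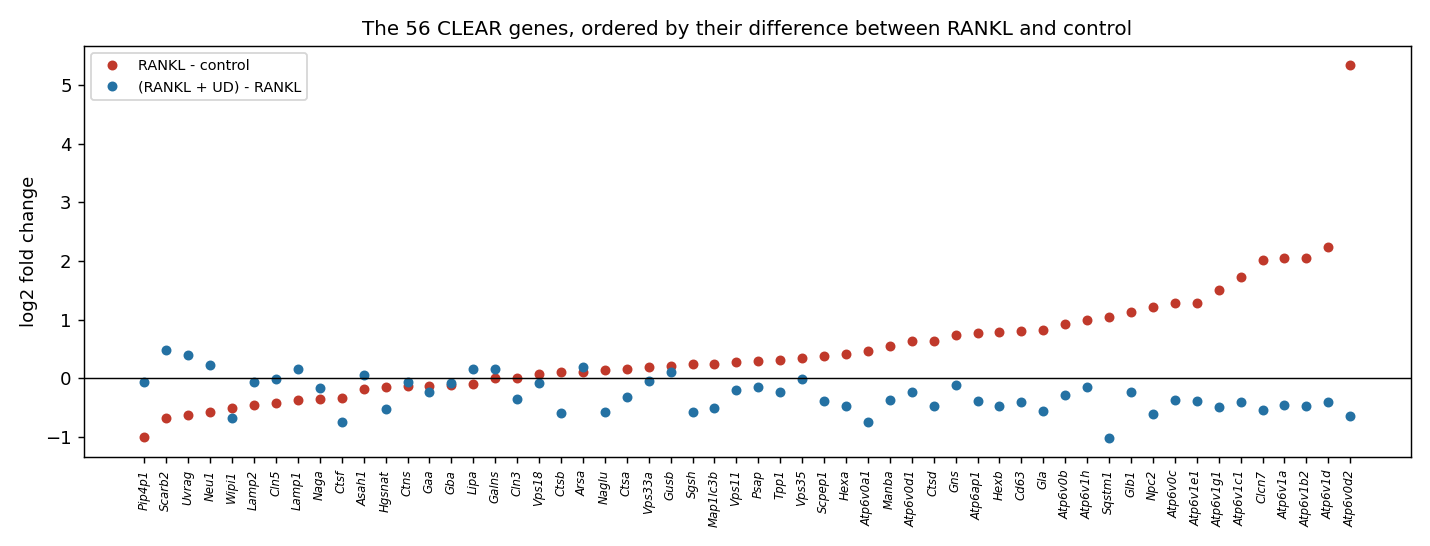
Log2 fold change (vertical axis) of each of the 56 CLEAR genes in RANKL against control and in RANKL + UD against RANKL, which share the RANKL libraries; genes are ordered along the horizontal axis by the first. Values run from -0.997 for Pip4p1 to 5.35 for Atp6v0d2 with RANKL, and from -1.02 for Sqstm1 to 0.49 for Scarb2 with UD.

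The largest rise was that of Atp6v0d2, an osteoclast subunit of the V-ATPase and also 1 of the osteoclast markers, from 8.85 ± 0.178 FPKM in control to 339.5 ± 2.99 in RANKL, and it stood at 231.6 ± 4.55 in RANKL + UD. Sqstm1, the autophagy receptor p62, went from 120.9 ± 5.24 to 235.1 ± 7.38 FPKM with RANKL and was at 123 ± 2.07 FPKM with UD, a fall of 1.02 on the log2 scale from RANKL (edgeR adjusted p = 1.16e-12). Its exons overlap those of Mrnip on the opposite strand, whose highest value was 1.37 FPKM. Scarb2, the lysosomal membrane protein LIMP-2, went the other way, from 21.1 ± 1.21 to 12.5 ± 0.298 and then 18.7 ± 0.686 FPKM. The cathepsin gene Ctsf fell in both steps, by 0.33 and then 0.74 on the log2 scale. Wipi1, an autophagy protein that binds phosphoinositides, passed the filter only through the control group, at 1.39 to 1.72 FPKM there, 0.95 to 1.12 in RANKL and 0.58 to 0.75 in RANKL + UD, so its call is no independent result. Uvrag, a subunit of an endosomal and autophagy lipid kinase complex, was 0.40 higher with UD than with RANKL alone on the log2 scale. Atp6v1d rose by 2.23 with RANKL, and Pip4p1 fell by 0.997, though the exons of Pip4p1 overlap those of Apex1 on the opposite strand. In the RefSeq windows of the same kind, 40 of the 56 genes matched and 17 of their 47 windows (36.2%) held CACGTG, as against 7.15% of all windows, in a list that was compiled for such elements.

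**Figure D5:**
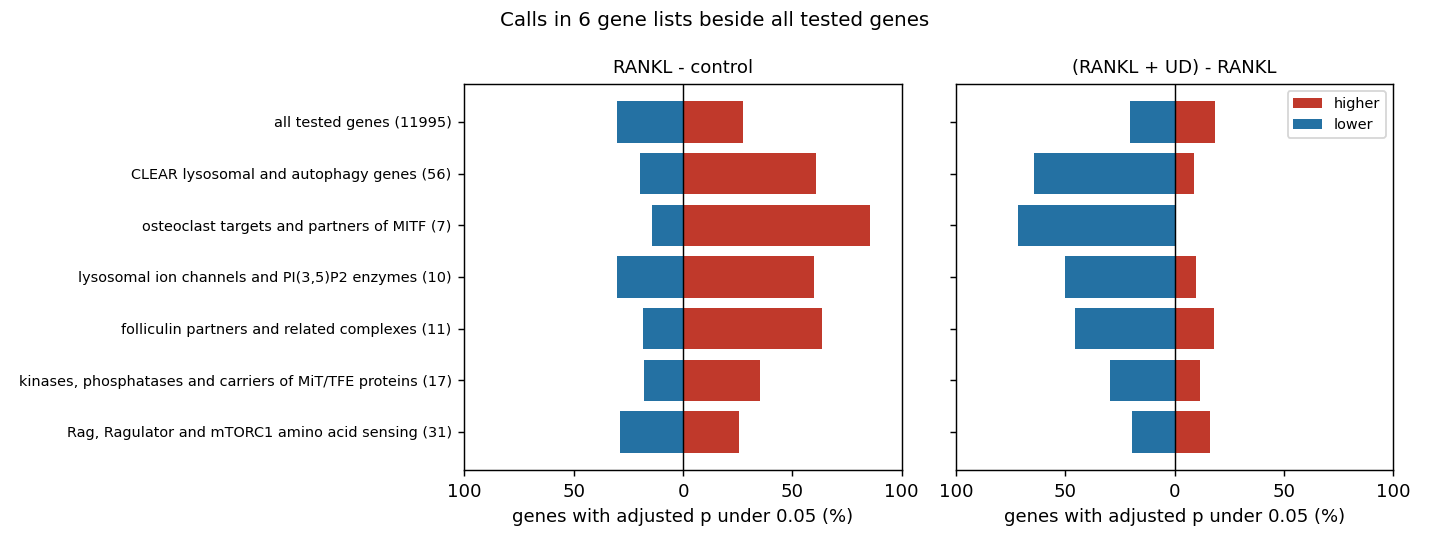
Percent of the tested genes of 6 lists, and of all 11995 tested genes, that were called higher (right of 0) or lower (left of 0) in RANKL against control and in RANKL + UD against RANKL; numbers of genes are in brackets and some genes are in several lists. In the CLEAR list 60.7% were higher with RANKL and 64.3% lower with UD, beside 27.3% and 20.2% of all tested genes. The RANKL bar of the osteoclast targets includes Acp5 and Oscar, which passed the filter only through the groups given RANKL.

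Around folliculin, 11 partner and related genes were measured. With RANKL 7 rose and 2 fell, and with UD 2 were higher and 5 lower than with RANKL. As shares these are 63.6% and 18.2%, beside 27.3% and 30.2% of all tested genes, and then 18.2% and 45.5%, beside 18.6% and 20.2%. C9orf72, which forms with Smcr8 a complex related in fold to folliculin and its partners, rose by 1.16 on the log2 scale with RANKL, from 12.1 ± 0.876 to 25.4 ± 1.54 FPKM, and its difference with UD was -0.13 (edgeR adjusted p = 0.0995). Smcr8 was 0.44 higher with UD than with RANKL on the log2 scale (edgeR adjusted p = 2.66e-06), with 184 exonic bases shared with Shmt1 on the opposite strand. Fnip1 and Fnip2, the folliculin-interacting proteins, were both lower with UD, by log2 differences of -0.29 and -0.33, while with RANKL Fnip1 rose by 0.44 and Fnip2 did not pass (-0.02, edgeR adjusted p = 0.829). Gabarapl1 and Gabarapl2 belong to the ubiquitin-like family of autophagosomes, which can bind the folliculin complex. Gabarapl1 fell in both steps, by 0.36 and 0.40, and Gabarapl2 rose by 0.67 with RANKL.

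The wider amino acid sensing machinery of Rag GTPases, Ragulator and mTORC1 was tested in 31 of 32 genes, 3 of them shared with the folliculin list. With RANKL 8 rose and 9 fell, and with UD 5 were higher and 6 lower, with medians of -0.05 and -0.02. These shares, 25.8% higher and 29.03% lower with RANKL and 16.1% and 19.4% with UD, lie near those over all tested genes (27.3% and 30.2%, 18.6% and 20.2%). Sesn2, a leucine sensor induced by stress, rose by 1.17 with RANKL and fell by 0.86 with UD on the log2 scale, its means being 5.94 ± 0.798, 12.6 ± 1.20 and 7.41 ± 0.650 FPKM. Castor1, an arginine sensor, was lower with UD by 0.87 (log2 difference -0.87, edgeR adjusted p = 0.00857), and its relative Castor2 fell by 0.71 with RANKL and was 0.43 higher with UD. Rragb, encoding RagB, fell by 0.84 with RANKL and was 0.48 higher with UD (edgeR adjusted p = 0.0188). Single libraries decided several of these calls with UD: that of Rragb was lost without RANKL replicate 1 or 3 or RANKL + UD replicate 2 (edgeR adjusted p = 0.0543 to 0.104), and that of Castor1 without RANKL replicate 1 or RANKL + UD replicate 2 (0.0595 and 0.0516). Seh1l, a subunit of the GATOR complex that antagonises the Rag inhibitors, rose by 0.46 with RANKL, and 126 of its exonic bases overlap an antisense gene. Against control, RANKL + UD showed a rise of 0.33 for the Ragulator subunit Lamtor5 and a fall of 0.50 for Kptn, part of a complex that restrains mTORC1 at the lysosome. The Kptn call was lost without control replicate 2 (edgeR adjusted p = 0.0930).

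Among 10 tested genes of 11 for lysosomal channels and phosphoinositide enzymes, 6 rose and 3 fell with RANKL, and 1 was higher and 5 were lower with UD. The shares lower were 30% with RANKL, beside 30.2% of all tested genes, and 50% with UD, beside 20.2%, and the shares higher were 60% and 10%, beside 27.3% and 18.6%. Clcn7 and Ostm1, which rose by 2.01 and 0.48 on the log2 scale with RANKL, are also in the osteoclast target list. Clcn7 is in the CLEAR list as well. Mcoln2, a relative of Mcoln1, fell in both steps, and its mean was 16.4 ± 0.526 FPKM in control, 7.15 ± 0.696 in RANKL and 3.16 ± 0.222 in RANKL + UD. Its log2 differences were -1.11 with RANKL (edgeR adjusted p = 5.17e-10) and -1.26 with UD (edgeR adjusted p = 3.29e-09). Mcoln3 was below the filter, with a mean of at most 0.0867 FPKM in a group. Tpcn2, a lysosomal channel that releases calcium or sodium, rose by 0.74 with RANKL, P2rx4, an ATP-gated channel, fell by 0.33, and Vac14, a scaffold of the phosphoinositide kinase complex, was 0.19 higher with UD. The Vac14 call was lost without RANKL replicate 1 or 2 or RANKL + UD replicate 2 or 3 (edgeR adjusted p = 0.0613 to 0.119), and the P2rx4 call without RANKL replicate 1 (0.0571).

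Kinases, phosphatases and carriers that act on MiT/TFE proteins were tested in 17 of 18 genes, of which 6 rose and 3 fell with RANKL, and 2 were higher and 5 lower with UD. As shares these are 35.3% and 17.6%, beside 27.3% and 30.2% of all tested genes, and 11.8% and 29.4%, beside 18.6% and 20.2%. Map4k3, a kinase that phosphorylates TFEB in response to amino acids, rose by 2.08 on the log2 scale with RANKL, from 2.43 ± 0.0862 to 9.70 ± 0.626 FPKM, and fell by 0.80 with UD, to 5.90 ± 0.554 FPKM. The MAP kinase gene Mapk3 was lower by 0.52 with UD (log2 difference -0.52, edgeR adjusted p = 0.000119), while its difference with RANKL did not pass (-0.07, edgeR adjusted p = 0.502). Of the calcineurin subunits, Ppp3r1 rose by 0.43 and Ppp3ca fell by 0.17 with RANKL, and Ppp3r1 shares 462 exonic bases with Wdr92 on the same strand. Ywhaq, a 14-3-3 protein of the kind that holds phosphorylated TFEB in the cytoplasm, fell by 0.41 with RANKL and was 0.15 higher with UD, and Xpo1, the exportin that carries TFEB out of the nucleus, was 0.13 higher with UD. Those last 2 differences are small against the effect of scaling: 6 genes of this list were higher with UD under total counts and 0 under DESeq2 size factors in edgeR. The Ywhaq call was also lost without RANKL replicate 1 or 2 or any RANKL + UD replicate (edgeR adjusted p = 0.0615 to 0.122), and the Xpo1 call without RANKL replicate 2 or 3 or RANKL + UD replicate 2 or 3 (0.0913 to 0.133).

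The tested genes whose FPKM followed each member most closely over the 9 libraries were listed by Pearson's r on log2(FPKM + 1), as a description only, since the 9 points fall into 3 groups and share their depth. For Mitf these were Plekhn1 (r = 0.993), Ifrd1 (0.992) and Csf2rb2 (0.992), which had means of 12.2, 40.1 and 12.2 FPKM in RANKL. For Gpnmb they were Gm2a (0.998), Bnip3 (0.998) and Fcrl1 (0.997). Gm2a, the activator protein of ganglioside breakdown in lysosomes, stood at 25.1, 78.4 and 41.0 FPKM in control, RANKL and RANKL + UD. Cd300lf, Ralb and Foxj2 were closest to Tfeb, and B3gnt3, Cnr2 and Slc25a23 to Tfe3, with r between 0.987 and 0.996. The closest genes were less alike for Tfec (Ints10 and Psmd13, r of 0.951 and 0.942), Flcn (Slc25a1, Hps6 and Oxa1l, 0.936 to 0.957) and Mcoln1 (Hemk1, Cep131 and Taf5, 0.864 to 0.922).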

How the data were processed

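Total RNA from RAW264.7 cells was converted to poly(A)-selected, dUTP strand-specific libraries and sequenced on an Illumina platform. The authors deposited 1 table of raw gene counts and FPKM for 9 libraries; the aligner, counter and strand setting are not given in the sources used here. The labels list the build mm10, but 1472 of 52073 genes shared with the GRCm38 annotation (GENCODE M21) had the same start and end in the table, so positions are those of that annotation, matched by gene ID. The exonic lengths were the same for all 8 members. FPKM recomputed from counts, lengths and summed counts gave the deposited values, to the rounding of their second decimal. The value columns name the RANKL group as the model group.

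Deposited counts were tested with edgeR 4.0.16 (R 4.3.3; TMM, quasi-likelihood, all 9 libraries in 1 fit, group as the only term), with Benjamini-Hochberg adjustment over 11995 genes and a threshold of 0.05. Genes were tested where 3 or more libraries had an FPKM of 1 or above. The fit was tested on simulated data. An exact permutation test of 3 against 3 libraries cannot go below p = 0.1 and was not used. Alternatives were DESeq2 1.42.0 and its size factors, total counts, no filter, limma 3.58.1 on log2(FPKM + 1) and log2(FPKM + 0.1), only the 6 libraries compared, the replicate number as a block, and each library left out. Replicate pairs differed by more than counting noise (chi-square per degree of freedom 2.83 to 8.22). P-values measure the spread between these replicates of 1 cell line.

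Members, lists and tests were chosen with earlier results of these data known. Named were all members, for each list the 2 largest called rises and falls in each comparison, and for each member the 3 genes most like it (1 of them is not reported here); other named list genes (Fnip1, Rragc, Mcoln3 and genes overlapping a named gene) were chosen after their values were seen. Total counts were 15951800 to 19746862 a library.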

Additional observations from a re-analysis of the deposited data

How the results depend on the processing

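The calls for Mitf, Gpnmb and Tfeb kept their side of the threshold under all 17 alternatives in all 3 comparisons, as did those for Tfe3 outside RANKL + UD against RANKL. Scaling mattered most for small differences: with total counts, 2579 genes were higher and 4421 lower in RANKL than in control (36.8% of calls higher, against 47.5% with TMM), and 3350 were higher and 1707 lower in RANKL + UD than in RANKL (66.2%, against 48.0%). With limma, 1539 (pseudocount 1) and 1488 (0.1) genes were lower in RANKL + UD than in RANKL, against 2418. The number of members higher in RANKL + UD than in RANKL was 1 with total counts or the 6 libraries only, and 0 to 1 with a library left out. With no filter, 3 members in place of 2 were higher in RANKL than in control, Rragd being the one added.

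Differences near 0 changed sign. For Flcn, RANKL against control became 0.014 with DESeq2 size factors and with DESeq2, 0.011 with no filter and 0.017 with the 6 libraries, and ran from -0.032 to 0.032 with a library left out (above 0 without control replicate 3 or RANKL replicate 1 or 3). For Flcn, RANKL + UD against RANKL became 0.019 with total counts and 0.017 and 0.019 with limma at pseudocounts of 1 and 0.1. For Mcoln1, RANKL against control ran from -0.094 to 0.041 (above 0 without control replicate 3 or RANKL replicate 1), and RANKL + UD against RANKL became 0.065, 0.058 and 0.069 with total counts and the limma fits and ran from -0.099 to 0.036 (above 0 without RANKL replicate 2 or 3). For Tfec, RANKL + UD against control ran from -0.14, without control replicate 2, to 0.22. Over all tested genes, the median in RANKL + UD against RANKL was 0.0050 in the main fit and 0.091 with total counts. With limma it was 0.073 and 0.088 at pseudocounts of 1 and 0.1. The cause of the sign changes was not tested.

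Of the list counts, 675 moved by at most 1.5 times and 39 by more, all but 6 of the latter in RANKL + UD against RANKL. CLEAR genes higher there numbered 8 in place of 5 with total counts or limma at a pseudocount of 1. Genes lower were 3 in place of 5 (folliculin list, total counts and limma), 2 or 3 in place of 6 (Rag list, total counts; limma), 2 in place of 5 (channel list, limma) and 3 in place of 5 (osteoclast targets, limma at 0.1). Genes higher in the kinase list were 0, 6 and 1 in place of 2 with DESeq2 size factors, total counts and DESeq2. Leaving out RANKL replicate 1 or 3 or RANKL + UD replicate 2 left 1 in place of 2 genes higher in the folliculin list and 3 in place of 5 in the Rag list. In RANKL against control, 5 genes of the Rag list in place of 8 were higher with total counts and limma.

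No strong pairing by replicate number was seen. Deviations from group means correlated at -0.02 to 0.10 for the same number (9 pairs) and -0.10 to 0.05 for different numbers (18 pairs). These ranges overlap, so they cannot decide whether the number carries a weak effect. With the number as a replicate block, 3346 genes were higher and 3694 lower in RANKL than in control, and 2347 and 2518 in RANKL + UD than in RANKL, and no call of a member changed. Depth limits Rragd, and to a lesser degree Tfeb and Tfec.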
